A study of Mus musculus with 54 samples.

Results

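The smooth muscle contractile genes Acta2, Myh11, Mylk, Cnn1 and Tagln were followed through a cycle of mouse mammary gland development. They were taken as every probe set of the array that carried exactly 1 of these 5 gene symbols, which gave 5 probe sets, 1 for each gene, of 12488 on the array. RNA had been extracted from 1 inguinal mammary gland of 1 mouse per array, after the lymph node was taken out, and 54 glands were measured on 1-colour Affymetrix arrays. The glands formed 18 time points of 3 mice, lettered A, B and C. There were virgin mice of 6, 10 and 12 weeks, mice at pregnancy days 1, 2, 3, 8.5, 12.5, 14.5 and 17.5, mice at lactation days 1, 3 and 7, and mice at involution days 1, 2, 3, 4 and 20. Mating was at 12 weeks of age, and involution was started by removing the pups after 7 days of lactation. No genotype or drug distinguishes the groups, the labels name no strain, and the age at each later stage follows from the mating age and the day.

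Mammary ducts and alveoli have a luminal cell layer that makes milk and an outer basal layer of myoepithelial cells, which contract in response to oxytocin and push the milk out. Myoepithelial cells are epithelial cells that use the contractile machinery of smooth muscle. Acta2, alpha smooth muscle actin, forms the thin filament, and Myh11, smooth muscle myosin heavy chain, forms the thick filament motor. Mylk, myosin light chain kinase, starts contraction by phosphorylating the regulatory light chain of that myosin. Cnn1, calponin, binds actin and restrains the myosin ATPase, and Tagln, transgelin or SM22, binds and bundles actin filaments. The smooth muscle of blood vessels in the gland uses the same 5 genes, so a whole-gland value adds both sources. In RNA of a whole gland, fewer cells of a type and less RNA per cell cannot be told apart.

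Smooth muscle contractile genes are a textbook example of control through the CArG box, the element bound by serum response factor, and the promoter of Acta2 is shown because Acta2 is the gene whose change between virgin ages differed from that of the other 4 (given with that comparison). RefSeq promoter sequences of build GRCm38.p6, 250 bases before to 50 bases after the annotated start, were matched for 3 of the 5 genes (Acta2, Mylk and Cnn1). The CArG box was searched as CC, then 6 bases that were each A or T, then GG, on 1 strand, since its reverse complement has the same form. The Acta2 window lies at chr19:34255324-34255623 on the minus strand and spans the start of the gene. Capitals mark the 2 matches with 1 mismatch:
Acta2: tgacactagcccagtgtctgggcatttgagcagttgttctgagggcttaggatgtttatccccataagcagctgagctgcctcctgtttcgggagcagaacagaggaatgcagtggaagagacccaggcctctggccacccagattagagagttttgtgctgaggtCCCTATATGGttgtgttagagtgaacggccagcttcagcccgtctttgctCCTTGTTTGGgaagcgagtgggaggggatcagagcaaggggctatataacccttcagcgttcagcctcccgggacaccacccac
The first match, CCCTATATGG, starts at base -84 from the annotated start, and the second, CCTTGTTTGG, starts at base -34. No window of the 3 held an exact match, and the Mylk and Cnn1 windows held no match with up to 1 mismatch. Of 32851 RefSeq mouse promoter windows of this length, 1.63% held an exact CArG box, 9.98% held one with up to 1 mismatch and 0.822% held 2 or more of the latter. These are matches of letters in a 300 base window, and binding was not measured.

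Values are array signals on a linear scale, with the 2% trimmed mean of each array between 100.05 and 100.07. A signal under 9.4 was set to 9.4, and tests used log2 signals. All 5 probe sets were among the 8640 that passed the filter on low signals, which asked for a signal above 22.8 in all 3 mice of at least 1 time point. The lowest signal of any of the 5 genes in any gland was 41.4, for Cnn1 at 6 weeks. Levels of different probe sets cannot be compared with each other on this array, so genes are compared only by how they changed. Of the markers that define basal cells, the probe sets of the keratins Krt5 (highest signal 25.6, median 6.50) and Krt14 (highest signal 24.0, median 8.05) were too dim to pass, while Trp63, the basal transcription factor, gave a mean signal of 46.4 to 110.6 by time point. Oxtr, the oxytocin receptor, and Srf, serum response factor, were not analysed here. Milk protein genes marked the stage of the glands, with 8 of 8 higher at lactation day 7 than at 12 weeks and a median log2 difference of 6.30. RNA integrity was followed by dividing the signal at the 3' end of beta-actin by that at its 5' end, a ratio that is higher where RNA is more degraded. It averaged 1.5 to 3.75 by time point and was highest at 6 weeks (3.75 ± 0.36, SD, n = 3). The same ratio for Gapdh ranked the time points otherwise. It averaged 15.2 at pregnancy day 1, 7.24 at pregnancy day 2, 3.95 at 12 weeks and 2.58 at 6 weeks.

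Each of the 5 genes differed among the 18 time points (limma F test, adjusted p from 9.1e-11 for Mylk to 1e-05 for Tagln), but so did 88.1% of all probe sets tested. Of the 5, 4 passed as higher at pregnancy day 14.5 than at 12 weeks, as did 8.82% of all probe sets. On involution day 2, 3 of the 5 passed as lower than on day 1, as did 3.14% of all probe sets. That second comparison was chosen after its values had been seen.

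Acta2 ranged 3.64-fold between its highest and lowest time points. Its signals in mice A, B and C were 659.7, 583.6 and 522.4 at 6 weeks, 561.4, 708.4 and 249.8 at 10 weeks and 296.5, 258.7 and 413 at 12 weeks. On pregnancy days 1, 2 and 3 they were 374.7, 468.8 and 741.5, then 1171.1, 428.6 and 433.8, then 483.7, 561.3 and 701.6. Mouse A of day 2 stood far above the other mice of early pregnancy. From pregnancy day 8.5 the signals were 898.3, 747 and 1117.2, at day 12.5 they were 1137.4, 1092.1 and 982.2, at day 14.5 they were 1054.1, 1042.7 and 944 and at day 17.5 they were 1234.2, 800.7 and 1038.2. Every mouse from day 8.5 to day 17.5 was above every virgin mouse. On lactation days 1, 3 and 7 the signals were 1438.8, 412 and 803.6, then 874.9, 787.6 and 669.4, then 679.1, 735.5 and 492.7 and the mice of day 1 ranged from 412.0 to 1438.8. Involution day 1 gave 1256.9, 712.4 and 990.9, day 2 gave 289.4, 246.8 and 385.3, day 3 gave 317.9, 266.4 and 298.5, day 4 gave 412.5, 329.9 and 482.3 and day 20 gave 640.2, 501.5 and 793.6. All mice of involution days 2 to 4 lay below all mice of lactation day 7 and of involution day 20. The highest mean was at pregnancy day 12.5 (1068.5; log2 10.06 ± 0.11, SD, n = 3) and the lowest at involution day 3 (293.5; log2 8.20 ± 0.13). From high to low the order was pregnancy days 12.5, 14.5 and 17.5, involution day 1, pregnancy day 8.5, lactation days 1 and 3, involution day 20, lactation day 7, pregnancy day 2, virgin 6 weeks, pregnancy days 3 and 1, virgin 10 weeks, involution day 4, virgin 12 weeks, and involution days 2 and 3. In each of the 17 pairs of neighbours in that order the 3 + 3 mice overlapped.

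Myh11 spanned 4.14-fold and was lowest in the youngest virgins. It gave 175.1, 147 and 116.3 at 6 weeks, 162.3, 253 and 198 at 10 weeks and 216.9, 219.5 and 294.6 at 12 weeks. Early pregnancy gave 264.2, 328.6 and 274.5 on day 1, 402.3, 268.2 and 185 on day 2 and 169.9, 266.8 and 180.3 on day 3. These overlapped the virgin values of 10 and 12 weeks. The signals were 335.7, 366 and 427.2 at day 8.5, 513.1, 569.2 and 509.3 at day 12.5, 721, 521.6 and 564.4 at day 14.5 and 452.2, 467 and 458.4 at day 17.5. In lactation they were 534.1, 252.5 and 455.2 on day 1, 653.6, 276.6 and 333.8 on day 3 and 323.6, 351 and 306.9 on day 7. Mouse A was the high one on days 1 and 3, and no mouse stood apart on day 7. Involution gave 717.7, 413.2 and 553.2 on day 1, 280.7, 222.4 and 256.2 on day 2, 178.7, 225.6 and 288.9 on day 3, 219.6, 176.3 and 167.8 on day 4 and 255.6, 303.1 and 404.3 on day 20. The highest mean was at pregnancy day 14.5 (596.5; log2 9.22 ± 0.24, SD, n = 3), with involution day 1 second (547.4), and the lowest was at 6 weeks (144.1; log2 7.17 ± 0.30). The order ran pregnancy day 14.5, involution day 1, pregnancy days 12.5 and 17.5, lactation days 1 and 3, pregnancy day 8.5, lactation day 7, involution day 20, pregnancy days 1 and 2, involution day 2, virgin 12 weeks, involution day 3, pregnancy day 3, virgin 10 weeks, involution day 4 and virgin 6 weeks. Of the 17 neighbouring pairs, 1 did not overlap, pregnancy day 12.5 above day 17.5.

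Mylk had a narrower peak. Its signals were 358.1, 319 and 282.6 at 6 weeks, 386.3, 486.7 and 353 at 10 weeks and 399.5, 395.9 and 439.6 at 12 weeks. On pregnancy days 1, 2 and 3 they were 416.3, 457.7 and 404.2, then 418.5, 478.9 and 334.9, then 330.7, 473.4 and 491.8. Virgin and early pregnant glands thus formed 1 range, from 282.6 to 491.8. The signals were 698.1, 609.2 and 654.9 on day 8.5, 1231.4, 1237.7 and 1015.5 on day 12.5, 1137.6, 1117.4 and 945.7 on day 14.5 and 831.5, 809.1 and 702.9 on day 17.5, all above that range. In lactation Mylk gave 799.8, 379.7 and 491.1 on day 1, 683.7, 485.2 and 389.4 on day 3 and 378.4, 516.5 and 460.5 on day 7. By day 7 the 3 mice overlapped the virgin range. In involution it gave 1112.3, 538.4 and 710.4 on day 1, 376.6, 376.2 and 362.1 on day 2, 384.9, 365.3 and 380.7 on day 3, 486.1, 420.7 and 421.5 on day 4 and 460, 540.4 and 608.4 on day 20. Involution days 2 and 3 had the tightest triplets of this gene. The highest mean was at pregnancy day 12.5 (1156.7; log2 10.18 ± 0.16, SD, n = 3) and the lowest at 6 weeks (318.4; log2 8.31 ± 0.17), a 3.63-fold span. The order was pregnancy days 12.5, 14.5 and 17.5, involution day 1, pregnancy day 8.5, involution day 20, lactation days 1, 3 and 7, involution day 4, pregnancy days 1 and 3, virgin 12 weeks, pregnancy day 2, virgin 10 weeks, involution days 3 and 2, and virgin 6 weeks. The mice of 3 neighbouring pairs did not overlap, namely pregnancy day 14.5 above day 17.5, pregnancy day 8.5 above involution day 20, and involution day 2 above virgin 6 weeks.

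Cnn1 had the widest span of the 5 genes, 6.53-fold, and was the gene whose high level lasted through lactation. Its probe set has a design suffix for sequences that can match more than 1 transcript, so its signal could include a related sequence. It gave 41.4, 58.8 and 50.2 at 6 weeks, 70, 60.4 and 90.1 at 10 weeks and 79.6, 64.1 and 82.3 at 12 weeks. Early pregnancy gave 54.7, 83.2 and 109.7 on day 1, 161.1, 76.6 and 61.6 on day 2 and 69.6, 131.8 and 139.5 on day 3. The highest of these signals was 161.1, in mouse A of pregnancy day 2. Later pregnancy gave 117.8, 238.4 and 159.7 on day 8.5, 233.5, 272.1 and 163.3 on day 12.5, 261.4, 255.2 and 270.4 on day 14.5 and 410.9, 189.1 and 283.3 on day 17.5. Lactation gave 520.8, 216.7 and 250.4 on day 1, 449.2, 303 and 249.4 on day 3 and 250.3, 234.4 and 222.9 on day 7. All of these lay above every virgin mouse. Involution gave 260.3, 196.6 and 250.1 on day 1, 165.5, 137.7 and 161.8 on day 2, 128.3, 126.2 and 172.7 on day 3, 134.5, 74.7 and 137.9 on day 4 and 55.9, 93.5 and 138.6 on day 20. The highest mean was at lactation day 3 (323.8; log2 8.34 ± 0.43, SD, n = 3) and the lowest at 6 weeks (49.6; log2 5.63 ± 0.25). From high to low came lactation days 3 and 1, pregnancy days 17.5 and 14.5, lactation day 7, involution day 1, pregnancy days 12.5 and 8.5, involution days 2, 3 and 4, pregnancy days 3 and 2, involution day 20, pregnancy day 1, and virgin 12, 10 and 6 weeks. Mice of 2 neighbouring pairs did not overlap, pregnancy day 14.5 above lactation day 7 and virgin 10 weeks above 6 weeks.

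Tagln varied least, 2.82-fold. It gave 292.8, 336.8 and 294.9 at 6 weeks, 280.3, 206.3 and 392 at 10 weeks and 410.5, 427.6 and 484.4 at 12 weeks. On pregnancy days 1, 2 and 3 it gave 334.8, 357.5 and 470.4, then 690, 464.5 and 383.4, then 605.4, 765.6 and 560.4. On day 3 all mice were above all virgin mice, but mouse A of day 8.5 (474.3) and mouse C of day 12.5 (420.6) were not. The later days of pregnancy gave 474.3, 651.8 and 581.5 on day 8.5, 686.3, 728.3 and 420.6 on day 12.5, 732.7, 619 and 676.7 on day 14.5 and 758.2, 678.9 and 810.2 on day 17.5. Lactation gave 830.7, 368.2 and 478.4 on day 1, 678.5, 428 and 335.5 on day 3 and 498.2, 520.3 and 383.9 on day 7, ranges that each held the 12 week mean. Involution gave 770.5, 534.1 and 602.4 on day 1, 478.9, 414.3 and 392.6 on day 2, 364.3, 373.2 and 414.2 on day 3, 423.2, 220.9 and 347.9 on day 4 and 170.2, 286.1 and 380.3 on day 20. The highest mean was at pregnancy day 17.5 (747.1; log2 9.55 ± 0.13, SD, n = 3) and the lowest at involution day 20 (264.6; log2 8.05 ± 0.59). The order was pregnancy days 17.5, 14.5 and 3, involution day 1, pregnancy days 12.5 and 8.5, lactation day 1, pregnancy day 2, lactation days 7 and 3, virgin 12 weeks, involution days 2 and 3, pregnancy day 1, involution day 4, virgin 6 and 10 weeks, and involution day 20. All 17 neighbouring pairs overlapped.

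**Figure D1:**
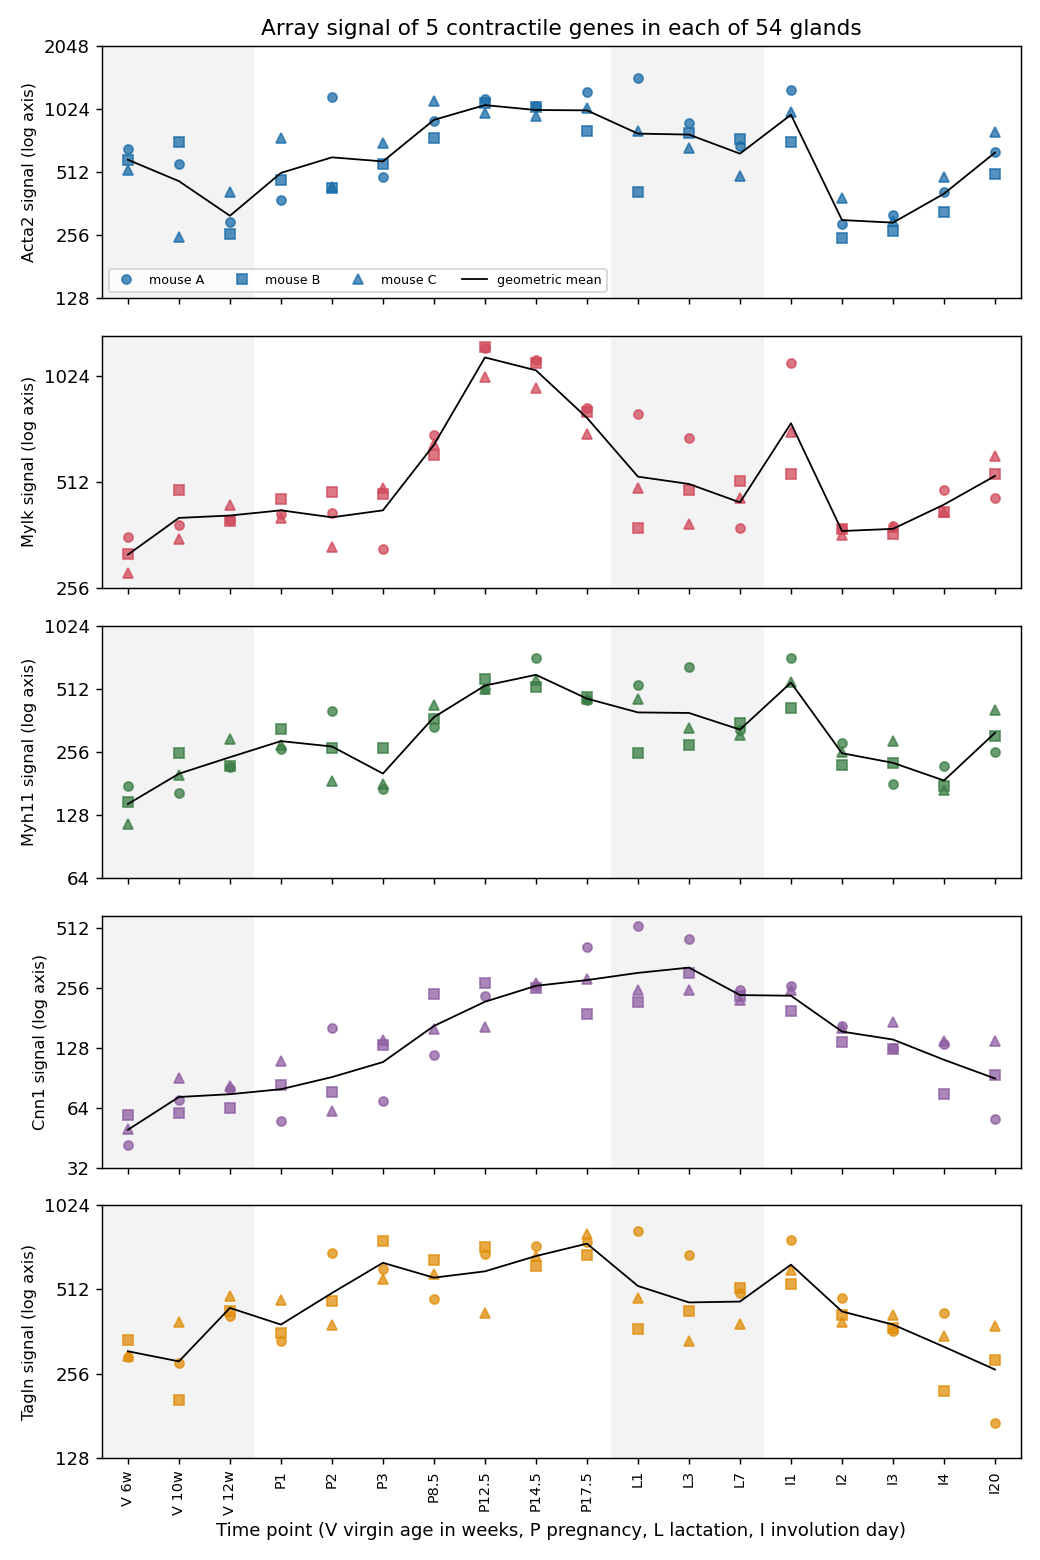
Signal of each contractile gene (log axis, array units) in every gland, with 1 panel per gene, time points from virgin to involution day 20 along the horizontal axis, marker shapes for mice A, B and C, and a line through the geometric means. The peak lies at pregnancy days 12.5 to 17.5 for Acta2, Mylk, Myh11 and Tagln and at lactation day 3 for Cnn1, and the spread of the 3 mice is wide on lactation day 1.

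The 3 mice of a time point often kept the same order across genes. At virgin 12 weeks and involution day 20 mouse C was highest in all 5 genes, and at lactation days 1 and 3 and involution day 1 mouse A was. At each of these time points except involution day 20 the same mouse also had the highest beta-actin ratio. In mice A, B and C that ratio was 1.77, 1.43 and 1.6 on lactation day 1. On involution day 20 it was 3.32, 1.99 and 2.4. On lactation day 1 mouse A gave 1438.8 for Acta2 and mouse B gave 412.0, and mouse B was lowest in all 5 genes. The median SD of the 5 genes was 0.60 on the log2 scale on that day, against 0.29 over all probe sets tested. The summed signal of 12 basal epithelial markers was 1371 in mouse A, 958.4 in mouse B and 1056 in mouse C of that day, and that of 9 luminal markers was 4657, 3029 and 4231, while 8 milk protein genes summed to 72060, 72850 and 72370. The part of such differences between mice in the results at lactation day 1 was not tested.

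Across the 18 time point means, pairs of the 5 genes correlated at Pearson r from 0.57 (Acta2 with Cnn1) to 0.89 (Mylk with Myh11). This is a description over means from the same 54 arrays. The profiles of all 10 pairs nevertheless differed: the within-array difference of the 2 log2 signals varied among time points in every pair (permutation test, 100000 permutations of arrays over time points, F from 3.18 for Acta2 and Mylk to 19.03 for Cnn1 and Tagln, adjusted p from 1.7e-05 to 0.0015). In 6 pairs the p was 1e-05, the smallest these permutations can give. Without the 18 mice lettered A, 8 of the 10 pairs passed.

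**Figure D2:**
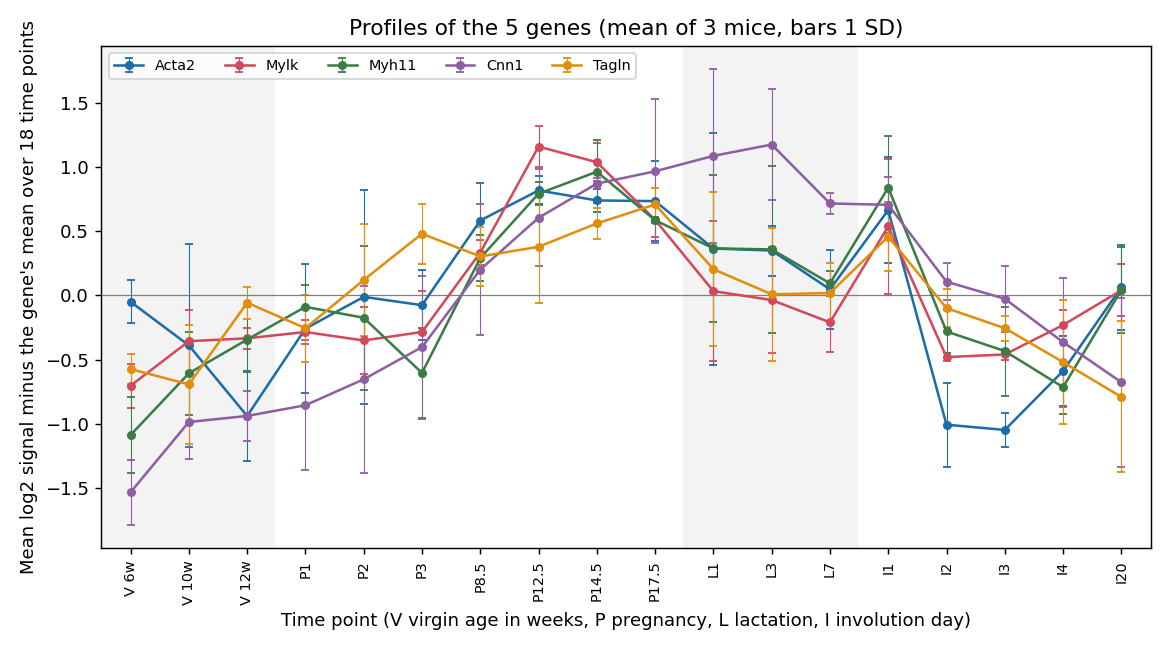
Mean log2 signal of each gene minus that gene's mean over the 18 time points (vertical axis), against time point, with bars of 1 SD over 3 mice. The lines lie close together from pregnancy day 8.5 to 17.5, Cnn1 stands above the other genes on lactation days 1 to 7, and Acta2 is the lowest line on involution days 2 and 3.

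Comparison of virgin glands at 12 and 6 weeks spans weeks in which the ducts of the gland fill the fat pad. Acta2 fell and Myh11 rose over these weeks, so 2 genes of the same filament system moved apart. Acta2 dropped from a mean of 585.9 to 316.4, a log2 difference of -0.89 ± 0.34 (SE, 95% interval -1.57 to -0.21, limma adjusted p = 0.041). Myh11 went from 144.1 to 241.2, 1.67-fold higher (0.74 ± 0.27, adjusted p = 0.031). The other 3 did not pass, with log2 differences of 0.37 ± 0.21 for Mylk (adjusted p = 0.18), 0.59 ± 0.34 for Cnn1 (adjusted p = 0.18) and 0.52 ± 0.27 for Tagln (adjusted p = 0.15). Of all probe sets tested 29.8% passed here, 17.2% as higher and 12.5% as lower. None of the 5 genes had overlapping mice, which was also true of 50.2% of all probe sets. Acta2 differed from each of the other 4 in the change itself, by -1.63 ± 0.29 against Myh11 (adjusted p = 3.4e-05 over 80 such tests), -1.48 against Cnn1 (0.00028), -1.40 against Tagln (0.00056) and -1.26 against Mylk (0.00049). These pair tests were added after their values had been seen, and the beta-actin ratio was not a covariate in them. The beta-actin ratio fell from 3.75 ± 0.36 to 1.99 ± 0.49 (SD, n = 3) between the same ages, and with that ratio as a covariate the differences were -0.35 for Acta2 (adjusted p = 0.58) and 0.84 for Myh11 (0.088). The Gapdh ratio went the other way, from a mean of 2.58 to 3.95, and was not used as a covariate. Fibroblast markers, which summed to 25280 to 27000 per gland at 6 weeks and 15030 to 16860 at 12 weeks, had 5 of 9 lower and 1 higher, and luminal markers had 5 of 9 higher. Basal markers had 2 of 12 higher and 2 lower, and vascular smooth muscle and pericyte markers had 1 of 8 higher and 0 lower. Skeletal muscle markers summed to 409.3 to 10890 per gland at 6 weeks and 541.1 to 5370 at 12 weeks, with 0 of 12 called. The Acta2 call was lost without any 1 of the 6 mice except mouse C of 12 weeks (adjusted p up to 0.15), and the Myh11 call without mouse B (0.056) or C (0.15) of 6 weeks or mouse C of 12 weeks (0.13).

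In the same comparison the wider contractile apparatus was mixed. Of 34 other contractile genes listed, 24 had a probe set and 21 passed the filter, of which 2 were higher, 5 were lower and the median log2 difference was 0.19, against 0.17 over all probe sets. Vcl, vinculin of actin anchoring sites, fell by 0.97 on the log2 scale (737.4 to 375.8, adjusted p = 0.0033). Fhl1, a LIM protein of muscle, fell from 369.4 to 189.1 (adjusted p = 0.048), and Actn1, an alpha-actinin that crosslinks actin, from 391.1 to 218.2 (adjusted p = 0.024). Cnn2, a calponin found outside smooth muscle as well, rose from 75.2 to 138.0 (0.88, adjusted p = 0.0042), and Myl9, the regulatory light chain that Mylk phosphorylates, rose from 96.8 to 142.1 (0.55 ± 0.20, adjusted p = 0.032). Itgb1 and Itga3, chains of a laminin receptor, were the called members among 8 measured regulators, Itgb1 falling from 2349 to 1009 and Itga3 rising from 21.2 to 63.7. The probe sets of Actn1 and Itgb1 are of a kind designed for a sequence family and could pick up related sequences.

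From virgin 12 weeks to pregnancy day 14.5, when alveoli are growing, 4 of the 5 genes rose. At 12 weeks Cnn1 had given 79.6, 64.1 and 82.3 and at day 14.5 it gave 261.4, 255.2 and 270.4, so the mice did not overlap, and the rise was 3.50-fold (log2 1.81 ± 0.34, adjusted p = 0.00018). Acta2 rose by 1.68 ± 0.34 (95% interval 1.00 to 2.35, adjusted p = 0.00039), Mylk by 1.37 ± 0.21 (adjusted p = 5.9e-06) and Myh11 by 1.31 ± 0.27 (adjusted p = 0.00048). Tagln was 1.53-fold higher without passing (0.62 ± 0.27, adjusted p = 0.11), though its mice did not overlap either. The median of the 5 genes was 1.37, against -0.09 over all probe sets. Of all probe sets 17.7% passed, 8.82% as higher and 8.85% as lower, and 46.9% had mice that did not overlap. The difference of Tagln was smaller than that of Cnn1 by 1.19 ± 0.23 (adjusted p = 5.4e-05), Acta2 by 1.06 (0.0097), Mylk by 0.75 (0.022) and Myh11 by 0.69 (0.03). These 4 calls held without any 1 of the 6 mice and under every other setting tried.

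Other contractile genes and cell markers were mixed in the same comparison. Of the 21 other contractile genes 4 were higher and 1 lower at day 14.5, with a median log2 difference of 0.05. Pdlim3, an alpha-actinin partner, rose from 38.7 to 97.7 (1.33 ± 0.32, adjusted p = 0.0024). Ppp1cb, the catalytic subunit of myosin phosphatase, which undoes the action of Mylk, rose from 234.3 to 399.3 (0.77, adjusted p = 0.019), and Tpm1, tropomyosin of the thin filament, from 331.8 to 529.8 (0.68, adjusted p = 0.011). Actg2, gamma smooth muscle actin, rose from 124.0 to 206.5 (0.74 ± 0.25, adjusted p = 0.037), but its probe set is of a kind designed for a sequence family and could pick up other actins, Acta2 included. Tagln2, a relative of Tagln found in many cell types, fell from 712.6 to 423.5 (adjusted p = 0.029). Of 12 basal markers 2 were higher and 0 lower, with a median log2 difference of 0.23. The 2 were the laminin chain Lamb3 (70.5 to 215.3) and the integrin chain Itga6 (66.6 to 159.3). Trp63 was 59.9 at 12 weeks and 71.9 at day 14.5 and did not pass (adjusted p = 0.54). Mme (-0.67), Egfr (-0.66), Cdh3 (-0.33) and Dkk3 (-0.07) had log2 differences below 0 that did not pass, and the rest of the list lay above 0. The basal sum was 871.9 to 944.3 per gland at 12 weeks and 1213 to 1332 at day 14.5. Vascular smooth muscle and pericyte markers as a list went the other way, with 0 of 8 higher and 3 lower (Pdgfrb, Mcam and Kcnj8), a median log2 difference of -0.91, and a sum of 994.6 to 1052 at 12 weeks and 664.6 to 844.2 at day 14.5. Of that list Rgs5 (0.60 ± 0.36) and Anpep (0.23 ± 0.36) had log2 differences above 0, which did not pass. Endothelial markers had 0 of 8 higher and 5 lower (Kdr, Tek, Flt1, Vwf and Eng). Skeletal muscle markers, from body wall muscle that can be taken with the gland, summed to between 541.1 and 5370 at 12 weeks and between 1195 and 3057 at day 14.5, with 0 of 12 called. The beta-actin ratio was 2.74 ± 0.60 at day 14.5, and the parts of these markers in the rise were not tested.

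**Figure D3:**
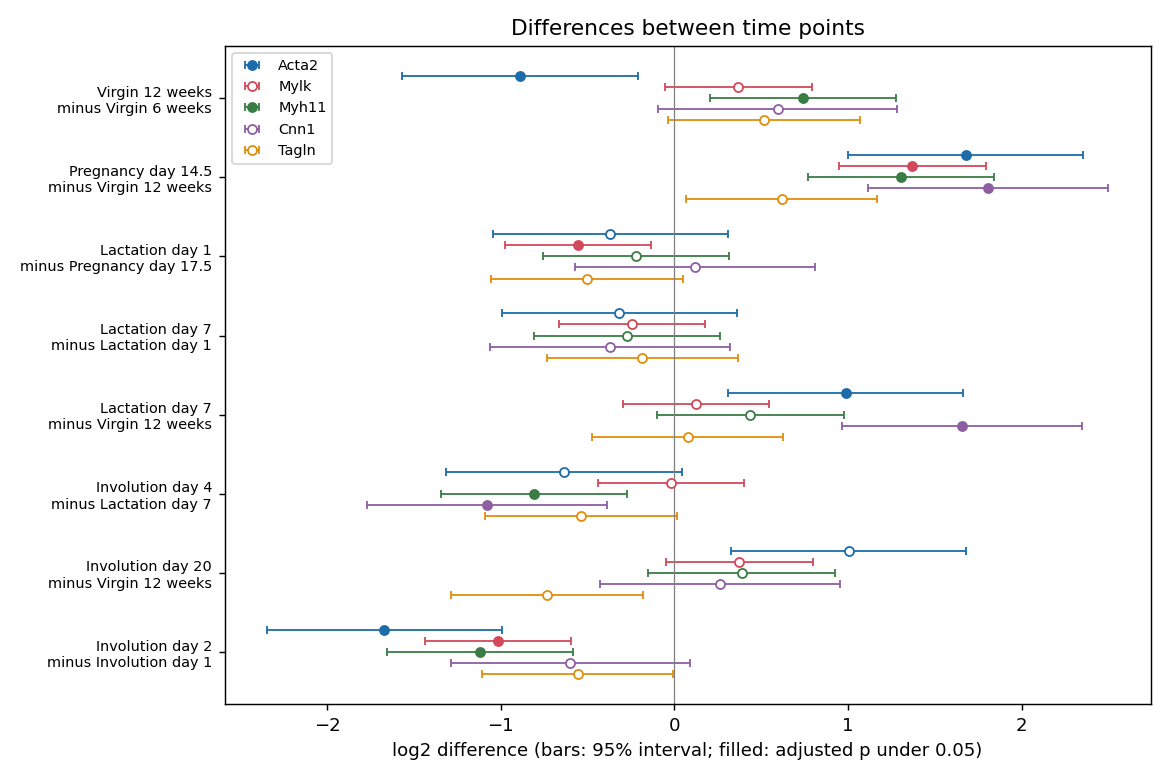
Log2 difference of each contractile gene (horizontal axis, bars the 95% interval of the limma fit) in 8 comparisons of time points, with filled points where the adjusted p was under 0.05. In the rows for pregnancy day 14.5 and for involution day 2 all 5 points lie on 1 side of 0, with 4 and 3 of them filled. The same holds for lactation day 7 against day 1, lactation day 7 against 12 weeks and involution day 4, with 0, 2 and 2 filled.

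Around birth 1 of the 5 genes passed. Between pregnancy day 17.5 and lactation day 1, Mylk alone passed and only just, from 779.1 to 530.3 (log2 -0.55 ± 0.21, adjusted p = 0.048), and its mice overlapped. The log2 differences of Acta2 (-0.37), Tagln (-0.50), Myh11 (-0.22) and Cnn1 (0.12) did not pass, with 95% intervals as wide as -1.05 to 0.31 for Acta2. Of all probe sets 23.3% passed, 13.2% as lower. Single mice moved these values both ways. Without mouse A of lactation day 1 Mylk fell by 0.85 (adjusted p = 0.0031), Tagln fell by 0.83 (adjusted p = 0.032) and Cnn1 had a difference of -0.27, on the other side of 0. Without mouse B of lactation day 1 Mylk had a difference of -0.31 (adjusted p = 0.38), and Acta2 (0.092) and Myh11 (0.10) were on the other side of 0. Without mouse B of pregnancy day 17.5 Cnn1 was at -0.16. The Mylk call was lost without any 1 of the 6 mice except mouse A of lactation day 1 (adjusted p from 0.059 to 0.38). Cnn1 and Tagln differed in this change by 0.62 ± 0.23 on the log2 scale in favour of Cnn1 (adjusted p = 0.03). Among the other contractile genes 0 of 21 were higher and 8 were lower, with a median of -0.51 against 0.00 over all probe sets. They were led by Cnn3 (356.4 to 141.3), Csrp2 (72.1 to 28.4), Pdlim3 (62.2 to 28.3) and Cav1, caveolin (866.2 to 403.0). Fibroblast markers had 6 of 9 lower and adipocyte markers 6 of 8 lower in the same comparison.

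Between lactation days 1 and 7 none of the 5 genes passed in the limma fit, and none did at any setting tried. The log2 differences were between -0.19 for Tagln and -0.37 for Cnn1, with adjusted p from 0.59 to 0.79, and 5.29% of all probe sets passed. The 95% intervals of the 5 differences together reach from -1.06 to 0.37. For these 5 genes the unadjusted test also gave no p under 0.05, since every 95% interval included 0.

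Compared with virgin 12 weeks, the gland at lactation day 7 had more Acta2 and Cnn1 signal, and no call for the other 3. Cnn1 was 3.15-fold higher (log2 1.65 ± 0.34, adjusted p = 9.3e-05), with 250.3, 234.4 and 222.9 against 79.6, 64.1 and 82.3, far apart. Acta2 was 1.98-fold higher (0.99 ± 0.34, adjusted p = 0.013) and its mice, like those of 60.4% of all probe sets, did not overlap, but its call was lost without mouse B of 12 weeks (0.064) or mouse B of lactation day 7 (0.055). Myh11 differed by 0.44 ± 0.27 (adjusted p = 0.17, or 0.04 with only the 6 arrays in the fit), Mylk by 0.12 ± 0.21 (0.64) and Tagln by 0.08 ± 0.27 (0.84). The mice of Myh11 did not overlap either, so that this held for 3 of the 5 genes. Of all probe sets 51.6% passed, 24.3% as higher and 27.2% as lower, so a count of 2 of 5 is near that background. Of the 10 pairs of genes, 5 passed in the difference of their changes, with Cnn1 ahead of Tagln by 1.58 ± 0.23 (adjusted p = 4e-07), of Mylk by 1.53 (9e-05) and of Myh11 by 1.22 (0.00089), and Acta2 ahead of Tagln by 0.91 (0.03) and of Mylk by 0.86 (0.018). The other 5 pairs, Acta2 with Myh11 or Cnn1 and the pairs among Mylk, Myh11 and Tagln, did not pass (adjusted p from 0.1 to 0.9). This comparison and that of pregnancy day 14.5 use the same virgin mice and are not independent.

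Around these genes most of the list was lower in lactation. Of the 21 other contractile genes 11 were lower and 1 was higher at lactation day 7 than at 12 weeks, with a median of -0.89 against -0.01 over all probe sets. Csrp2, a LIM protein of smooth muscle, went from 225.9 to 19.6 (-3.53 ± 0.47), Cav1 from 1103 to 229.9 (-2.26), Cnn2 from 138.0 to 31.1 (-2.15) and Fhl1 from 189.1 to 48.2 (-1.97). The 1 that rose was Actg2, from 124.0 to 255.6 (1.04 ± 0.25, adjusted p = 0.00062). Thus the signals of Cnn1 and its relatives Cnn2 and Cnn3 (415.5 to 119.9, -1.79) went opposite ways. The Cnn3 probe set, like that of Actg2, is of a kind designed for a sequence family and could pick up related sequences. The adhesion protein Vcl fell as well (375.8 to 100.2, -1.91). Basal markers had 4 of 12 lower (Mme, Itgb4, Lama3 and Id4) and 0 higher, near the 27.2% of all probe sets that were lower, and their sum of 700.5 to 746.3 was the lowest of all time points, while Trp63 was 86.2 against 59.9. Vascular smooth muscle and pericyte markers had 5 of 8 lower with a median of -1.33, endothelial markers 6 of 8 lower and 1 higher, fibroblast markers 9 of 9 lower with a median of -3.33, and adipocyte markers 6 of 8 lower. In the vascular list Rgs5 (0.63 ± 0.36) and Des (0.78 ± 0.56) had differences above 0 that did not pass. The luminal list had 3 of 9 higher and 3 lower. Notch1 went from 170.1 to 15.4 (-3.47, adjusted p = 7e-08) and Mrtfa, a coactivator of serum response factor, from 96.2 to 48.6 (-0.98, adjusted p = 0.0026). Fhl2, a LIM protein that binds serum response factor, went from 67.5 to 36.3 (-0.89, adjusted p = 0.0066), and these 3 were the called regulators of 8.

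**Figure D4:**
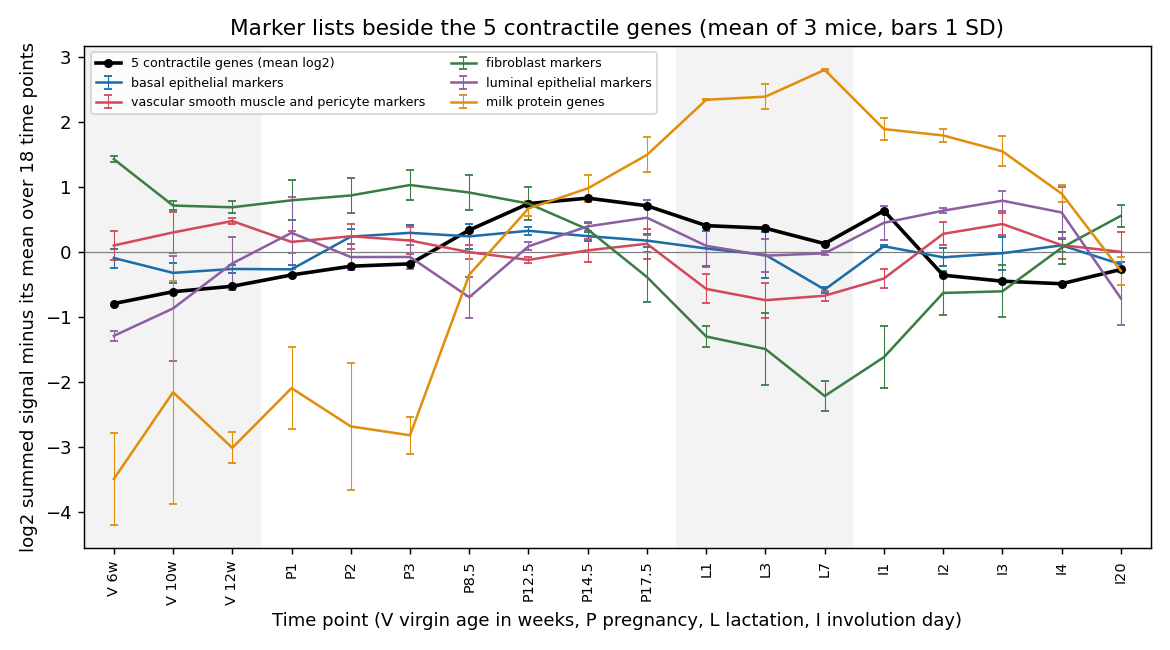
Log2 of the summed signal of 5 marker lists, and the mean log2 signal of the 5 contractile genes (black), each minus its own mean over the 18 time points, against time point, with bars of 1 SD over 3 mice on the lists. The contractile genes and the basal markers stay within about 1 unit of their means, while milk protein genes rise from pregnancy day 8.5 to lactation day 7 and fibroblast markers fall over the same days.

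The sharpest drop of Acta2 came between involution days 1 and 2, a comparison chosen after the values had been seen. Acta2, Mylk and Myh11 fell from day 1 to day 2, and Tagln and Cnn1 gave lower values that did not pass. Means at lactation day 7 had been 626.7 for Acta2, 448.1 for Mylk and 326.7 for Myh11. Those of involution day 1 were higher, at 960.9, 752.1 and 547.4, a difference that was not tested. Those of involution day 2 were 301.9, 371.6 and 252. Acta2 went from 1256.9, 712.4 and 990.9 to 289.4, 246.8 and 385.3, with no overlap, a 3.18-fold lower mean (log2 -1.67 ± 0.34, 95% interval -2.35 to -0.99, adjusted p = 0.0012). Mylk fell by 1.02 ± 0.21 on the log2 scale (adjusted p = 0.0015) and Myh11 by 1.12 ± 0.27 (adjusted p = 0.0062). Tagln differed by -0.56 ± 0.27 (adjusted p = 0.23) and Cnn1 by -0.60 ± 0.34 (adjusted p = 0.33). Of all probe sets 7.64% passed, 3.14% as lower. For all 5 genes each mouse of day 2 was below each mouse of day 1, as it was for 14.1% of all probe sets. The change of Acta2 lay below that of Tagln by 1.11 (adjusted p = 0.0068) and below that of Cnn1 by 1.07 (0.007). Mouse A of day 1 was the highest in all 5 genes. Without it Acta2 differed by -1.48 (adjusted p = 0.012), Mylk by -0.73 (0.035) and Myh11 by -0.92 (0.053), so that the Myh11 call was lost. With only the arrays of these 2 days in the fit Mylk did not pass (0.084).

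Among the 21 other contractile genes 5 were lower and 1 was higher. The 5 were Actg2 (258.6 to 121.3, -1.09 ± 0.25, adjusted p = 0.0048), Rhoa, the GTPase that keeps light chains phosphorylated (490.0 to 284.5, -0.78, adjusted p = 0.006), Myl9 (208.6 to 126.4, -0.72 ± 0.20, adjusted p = 0.018), Tpm1 (1020 to 669.3, -0.61, adjusted p = 0.041) and Cnn3 (364.0 to 236.7, -0.62, adjusted p = 0.049). Pdlim3 rose from 22.5 to 49.4, and of 8 regulators Notch1 rose from 43.7 to 124.8 (1.51 ± 0.48, adjusted p = 0.041). The list as a whole had a median of -0.07, against -0.02 over all probe sets. Basal markers had 0 of 12 lower and 1 higher, Lama3, and their sum was 1128 to 1153 per gland on day 1 and 908.9 to 1074 on day 2. Trp63 was 57.3 on day 1 and 65.4 on day 2. Vascular smooth muscle and pericyte markers had 0 of 8 lower and 1 higher, Anpep, which went from 226.7 to 535.4. Their sums, Anpep included, were 523.1 to 625.4 on day 1 and 805.7 to 1025 on day 2. Most of the difference between these sums lay in Anpep. Fibroblast markers had 4 of 9 higher, and their sum was 2227 to 4246 on day 1 and 4851 to 7746 on day 2. Milk protein genes had 0 of 8 called. The beta-actin ratio was 2.09 ± 0.39 on day 1 and 1.66 ± 0.24 on day 2, and with it as a covariate the 3 calls held.

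By involution day 4, against lactation day 7, Cnn1 and Myh11 were lower. Cnn1 went from 250.3, 234.4 and 222.9 to 134.5, 74.7 and 137.9 (log2 -1.08 ± 0.34, adjusted p = 0.0094) and Myh11 from 323.6, 351 and 306.9 to 219.6, 176.3 and 167.8 (-0.81 ± 0.27, adjusted p = 0.012). In these 2 genes and in Acta2, 3 of the 5, the mice did not overlap, as in 55.1% of all probe sets. Acta2 (-0.64 ± 0.34, adjusted p = 0.12) and Tagln (-0.54 ± 0.27, adjusted p = 0.11) did not pass, and Mylk had a difference of -0.02 ± 0.21 (95% interval -0.44 to 0.40, adjusted p = 0.95). Of all probe sets 44.4% passed, 22.7% as higher and 21.7% as lower, so the count of 2 of 5 called is near its background. Mylk differed from Cnn1 by 1.06 (adjusted p = 0.0056) and from Myh11 by 0.79 (0.0055) in the size of the change. The Cnn1 call was lost without mouse B of day 4 (adjusted p = 0.091), without mouse A of that day Tagln also passed (0.047), and with only the 6 arrays in the fit Acta2 also passed (0.04).

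Most called genes of the wider contractile list went the other way. Of the 21 other genes 13 were higher at involution day 4 than at lactation day 7, 2 were lower, and the median was 1.17 against -0.03 over all probe sets. The 2 that fell were Actg2 (255.6 to 113.7, -1.17 ± 0.25, adjusted p = 2e-04) and Myl9 (169.6 to 116.7, -0.54 ± 0.20, adjusted p = 0.024). Among those that rose were Csrp2 (19.6 to 168.3, 3.11 ± 0.47), Smtn, smoothelin of contractile smooth muscle (19.9 to 79.8, 2.00 ± 0.69, adjusted p = 0.016), Csrp1 (174.5 to 612.3, 1.81), Cnn2 (31.1 to 104.9, 1.75) and Tpm1, tropomyosin (259.1 to 506.1, 0.97, adjusted p = 6.4e-05). Basal markers had 4 of 12 higher, Itgb4 (23.2 to 147.9), Lama3 (14.8 to 82.0), Lamb3 (38.2 to 107.7) and Itga6 (91.2 to 144.9), and 0 lower. Their sum was 1100 to 1254 on day 4. Regulators had 3 of 8 higher, Notch1, Fhl2 and Itgb1. Fibroblast markers had 8 of 9 higher with a median of 2.60, and adipocyte markers had 6 of 8 higher and 1 lower. Vascular smooth muscle and pericyte markers had 3 of 8 higher and 1 lower, Rgs5 (83.3 to 41.1, -1.02 ± 0.36, adjusted p = 0.019). The part of these markers in these values was not tested.

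At involution day 20 the gland was set against virgin 12 weeks, the age of mating, and none of the 5 genes passed. Acta2 was 2.00-fold higher (log2 1.00 ± 0.34, 95% interval 0.33 to 1.68, adjusted p = 0.098), with 640.2, 501.5 and 793.6 against 296.5, 258.7 and 413, and Tagln was 1.66-fold lower (-0.73 ± 0.27, 95% interval -1.28 to -0.18, adjusted p = 0.14), with 170.2, 286.1 and 380.3 against 410.5, 427.6 and 484.4. In both genes and in Mylk, 3 of the 5, the mice did not overlap, as in 24.3% of all probe sets. The intervals of Acta2 and Tagln each lie on 1 side of 0, so 2 of the 5 had an unadjusted p under 0.05. With array weights in the fit Acta2 passed (adjusted p = 0.0077). Mylk (0.37), Myh11 (0.39) and Cnn1 (0.26) had adjusted p from 0.37 to 0.76. Only 2.64% of all probe sets passed. Tagln differed from each of the other 4 genes, by 1.74 ± 0.33 against Acta2 (adjusted p = 5.4e-05), 1.12 against Myh11 (0.00049), 1.11 against Mylk (0.00056) and 1.00 against Cnn1 (0.00049), in each case lower. Of the 21 other contractile genes 1 was lower, Cnn2 (138.0 to 74.0), and 0 were higher. Itga3 was the 1 regulator called (63.7 to 12.9, -2.31 ± 0.45, adjusted p = 0.001), and none of the 12 basal, 8 vascular, 9 fibroblast or 8 endothelial markers was called in the limma fit.

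**Figure D5:**
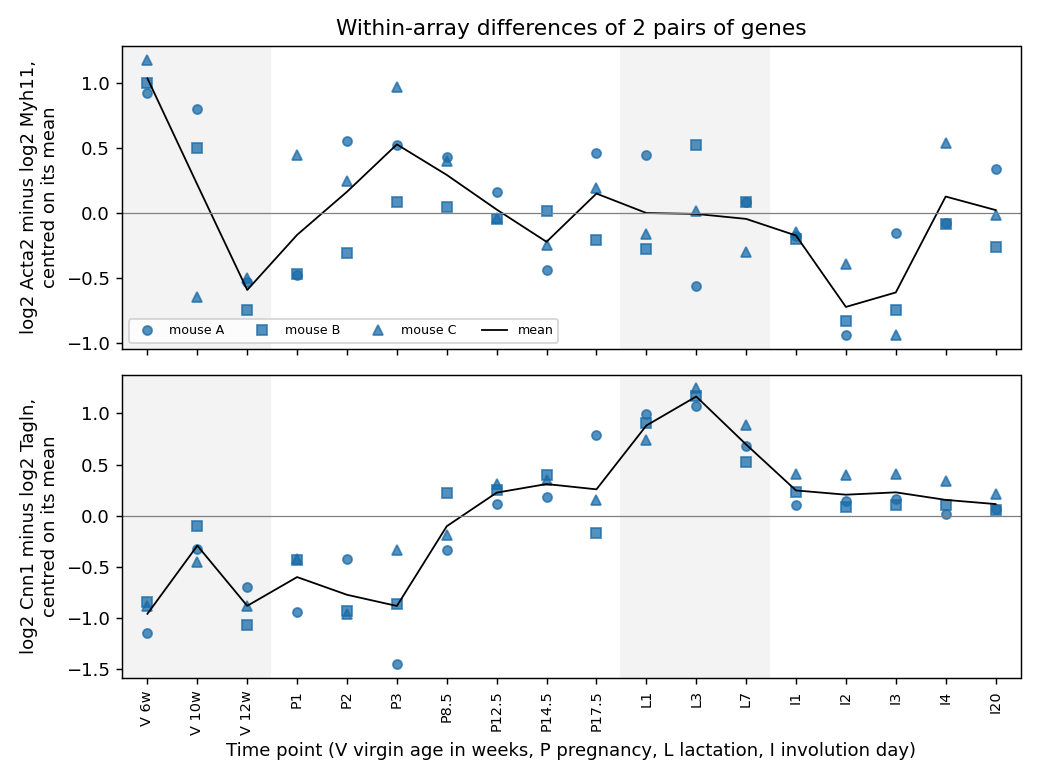
Within-array log2 difference of Acta2 and Myh11 (upper panel) and of Cnn1 and Tagln (lower panel), each centred on its mean over the 54 arrays, for every gland (marker shapes for mice A, B and C) with a line through the time point means. In the upper panel the 3 mice of 6 weeks lie above all 3 of 12 weeks, and in the lower panel all mice of lactation days 1, 3 and 7 lie above 0.5 while all virgin mice lie below 0.

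Within-array differences take out anything that scales a whole array, and 22 of the 80 tests of a pair in a comparison passed (limma, adjusted over the 80). The pairs and comparisons share genes and mice and are not independent, and these tests were added after their values had been seen. None of the 10 tests passed for lactation day 7 against day 1, and the Cnn1 and Tagln pair passed in 4 of the 8 comparisons, always with Cnn1 relatively higher at the later time point.

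Among 7765 other probe sets with 1 symbol, the profiles most like the mean of the 5 standardised genes over the 54 arrays were those of Gjb6 (Pearson r = 0.78 for one probe set and 0.75 for another), Igfbp2 (0.76), Shmt1 (0.75), Rpl10a (0.74), Plscr1 (0.74), Car2 (0.73), Banf1 (0.72), Apex1 (0.72) and Nhp2 (0.72). The median r of all candidates was 0.00 and the 95th percentile 0.43. None of these is in the contractile or basal lists. Igfbp2, an insulin-like growth factor binding protein, had a mean signal of 99.4 at 12 weeks, 261.4 at pregnancy day 14.5, 182.4 on involution day 1 and 55.6 on day 2. Gjb6, a gap junction protein, was at the 9.4 floor in virgin glands and reached 300.6 at pregnancy day 17.5. Taken singly, the closest probe set was Eif2s3x for Acta2 (0.74), Nhp2 for Mylk (0.78), Gjb6 for Myh11 (0.70), Elf5 for Cnn1 (0.86) and Igfbp2 for Tagln (0.85). Elf5, a luminal alveolar transcription factor, had a mean signal of 59.0 at 12 weeks, 1083 at pregnancy day 14.5, 1769 at lactation day 7 and 118.1 at involution day 20. These are correlations over arrays that share time points, given as a description.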

How the data were processed

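Total RNA of 54 mammary glands was hybridised to 1-colour Affymetrix arrays. Per the submitters' processing notes the deposited signal intensities were computed by the authors with MAS5 (no version given there), and the trimmed means show scaling to a common level. Signals under 9.4 (25th percentile) were set to 9.4 and taken to log2. The 66 controls were left out, and 8640 probe sets above 22.8 (40th percentile) in all 3 mice of at least 1 time point were kept apart, not merged by gene. Of the non-control probe sets 10833 had 1 gene symbol in the platform annotation, 396 several and 1193 none, and updating through Entrez identifiers changed 0 symbols. limma 3.58.1 in R 4.3.3 fitted 1 mean per time point over the 54 arrays (eBayes with intensity trend, 36 residual and 6.80 prior degrees of freedom), so SEs pool all time points. Tests were two-sided, adjusted by Benjamini-Hochberg over 8640 probe sets and called at an adjusted p under 0.05. Comparisons that share a time point are not independent. Pairs of genes were tested on within-array log2 differences. The number of arrays, 3 per time point, limits the precision.

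The 5 genes, the comparisons and 10 lists were chosen with earlier results of these data known, and the comparison of involution days 2 and 1 and the pair tests within comparisons were added after their values were seen. A listed gene is represented by its kept probe set with the highest mean, and Fhl2, Des and Trp63 stand in 2 lists each. So do Oxtr and Jag1, which gave no values here. Named were the 5 genes, up to 4 called members of a list per comparison by size of change, a few fixed genes, and the 10 probe sets most like the mean of the 5. The text gives part of the genes this names. Further values of Vcl, Cnn3, Tpm1 and Fhl1 and levels of Igfbp2, Gjb6 and Elf5 were picked after they were seen. Scripts were checked on simulated data. Alternatives changed the floor (none, or the 40th percentile), the scaling (quantile or median), the filter (none), the probe sets (1 per gene), the arrays fitted (only those compared, or each left out in turn) and the model (array weights, no trend, the letter as a block, or the beta-actin ratio as a covariate). Python 3.11.15, pandas 2.3.3 and matplotlib 3.10.9 served for tables and figures.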

Additional observations from a re-analysis of the deposited data

How the results depend on the processing

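Of 745 alternative values of single genes, 693 kept direction and side of the threshold, 28 lost and 11 gained a call and 13 changed sign, all 13 when 1 mouse was left out. The 5 F test calls held throughout, as did the 4 at pregnancy day 14.5, where Tagln also passed with median scaling (0.032), with only the 6 arrays (0.0072) and with array weights (0.0081). For virgin 12 against 6 weeks, 2 genes were called, but 1 with quantile normalization, with median scaling or with no filter, 4 with only the 6 arrays, 0 with the beta-actin covariate, and 0 to 1 without a replicate. For lactation day 1 against pregnancy day 17.5 the 1 call became 0 with no filter, only the 6 arrays, array weights, no trend or the covariate, and 0 to 2 without a replicate. Without a replicate the counts were 1 to 2 for lactation day 7 against 12 weeks, 1 to 3 for involution day 4 against lactation day 7, 2 to 3 for involution day 2 and 8 to 10 for the pairs. With only the 6 arrays Myh11 also passed at lactation day 7 against 12 weeks (0.04) and Acta2 at involution day 4 (0.04). Array weights gave 1 call at involution day 20, where the other settings gave 0. Values that changed sign when a mouse was left out ranged, for lactation day 1 against pregnancy day 17.5, over -0.27 to 0.40 (Cnn1), -0.81 to 0.092 (Acta2) and -0.44 to 0.10 (Myh11). For lactation day 7 against day 1 they ranged over -0.78 to 0.12 (Acta2), -0.48 to 0.05 (Mylk), -0.44 to 0.14 (Tagln) and -0.62 to 0.016 (Cnn1). The others were -0.0079 to 0.21 (Tagln, lactation day 7 against 12 weeks), -0.14 to 0.082 (Mylk, involution day 4) and -0.051 to 0.60 (Cnn1, involution day 20). None of these was called.

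Over all probe sets the calls moved from 2571 to 349 (covariate, 12 against 6 weeks), from 1527 to 2578 (only the 6 arrays) and 3103 (weights) at pregnancy day 14.5, from 2011 to 620 at lactation day 1, from 457 to 64 at lactation day 7 against day 1, from 228 to 129 and 627 (weights) at involution day 20, and from 660 to 305 and 1428 (weights) at involution day 2, the lower of each with only the 6 arrays. Leaving out 1 mouse moved them by more than 1.5 times to 1581 (without A of 6 weeks), 890 (without B of pregnancy day 14.5), 1061 (without B of lactation day 1, against pregnancy day 17.5), 216 (without A of lactation day 1, against day 7), 279 (without C of lactation day 7, against day 1), 135 to 140 (without B or A of 12 weeks, at involution day 20) and 259 to 393 (without B or C of day 1 or A or B of day 2, at involution day 2). Median scaling shifted the median of all probe sets by -0.22 for 12 against 6 weeks, 0.19 at pregnancy day 14.5 and 0.15 at involution day 20, and quantile normalization by -0.14 in the first. Mice with the same letter did not deviate together (r from -0.095 to 0.054), so the letters do not pair them, and the letter as a replicate block gave the same counts, 5 for the F test and 2, 4, 1, 0, 2, 2, 0 and 3 for the comparisons in the order of the plot. The cause of these changes was not tested. The 3 mice per time point limit the precision, as the intervals given show.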
